A study of Drosophila melanogaster with 20 samples.

Results

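The odorant-binding protein genes of Drosophila melanogaster were followed in brain and fat body, tissues other than the antenna in which the family was first described. The members were the genes whose symbol in the tables begins with Obp and a digit, and 44 of the 13973 genes with a symbol of their own met this rule. Of these 44, 16 had a group mean of at least 1 RPKM (read counts scaled to exon length and library depth) in some group, and they are called expressed here. 2 members held most of the family's RNA, Obp44a in the brain and Obp99c in the fat body, and Obp99a came second in the fat body. No member passed the threshold between diets over all 5 libraries per diet. On the log2(RPKM + 1) scale the largest diet difference was that of Obp99a, which was lower in each fat body library of flies on high sugar than in any on normal food.

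Odorant-binding proteins are small, soluble proteins that cells secrete, and a pocket in them holds hydrophobic molecules. In the antenna they fill the fluid around the olfactory neurons, where LUSH is known to take part in the response to a pheromone. Members are grouped by their cysteines into classic, Minus-C (fewer) and Plus-C (more) proteins, and many are made in tissues with no olfactory role.

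RNA sequencing of wild-type Oregon-R females, 5 days old, gave 20 libraries, 5 in each of 4 groups. The groups were brain on normal food (ND), brain on a high sugar diet (HSD), fat body on ND and fat body on HSD. The labels list 5 days on the diet for every library, and they name neither a transgene nor how many animals went into a library. The fat body stores fat and glycogen and secretes proteins into the blood, as liver and adipose tissue do in mammals. Brain libraries held 21.7 to 46.3 M reads on genes, and fat body libraries 5.6 to 40.4 M. On a gene of 1 kb, 3 reads stood for 0.0648 to 0.138 RPKM in brain libraries and for 0.0742 to 0.536 RPKM in those of the fat body, a floor for counting error alone. The neuron markers found summed to 1473 to 2124 RPKM in the brain and to at most 9.45 RPKM in the fat body, while those of the fat body summed to 434.3 to 10170 RPKM in the brain and to 40800 to 164300 RPKM in the fat body. Brain libraries 4 and 5 of both diets stood apart from libraries 1 to 3, and the labels give no batch. Fat body ND 4, ND 5 and HSD 4 listed few genes at 1 to 3 reads (101 to 413 entries), fewer than the 1119 to 1262 of the remaining 7. Marker lists hold older and newer symbols of some genes, so a symbol not found is not always a missing gene. Markers of the antenna, 11 of 13 symbols found, summed to 4.411 to 7.502 RPKM in the brain and to at most 2.386 RPKM in the fat body. Among them the odorant co-receptor Or83b had 2.46 to 3.98 RPKM in the brain, and a10 was at 0 in every fat body library. The antenna list also holds lush, Os-E, Pbprp1 and Pbprp3, which are odorant-binding protein genes under older symbols. Its sum is thus not independent of the family.

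A minority of the family was expressed in either tissue. In the brain 11 members had a mean of at least 1 RPKM on ND and 10 on HSD, and in the fat body 11 had on ND and 13 on HSD. These were 22.7% to 29.5% of the 44 members, against 58% to 63.7% of all genes. 9 members were expressed in both tissues, and 6 members in all 4 groups. Obp56d and Obp57d reached the cut in the fat body on HSD only, through library HSD 2. Obp99b reached it in the brain on ND only. Obp57d also has values identical to those of the overlapping gene Cpr57A in all 20 libraries, so its place in these counts is open. Obp49a and Obp56h were expressed in the brain only, and Obp56a, Obp57a, Obp57b, Obp57c and Obp19c in the fat body only, with "only" standing for this cut at 1 RPKM. The remaining 28 members stayed below it in every group, and their highest single value was 2.27 RPKM, for Obp93a. 5 of these 28 (Obp50d, Obp56b, Obp56i, Obp58c and Obp58d) were listed at 0 in all 20 libraries. Just inside the cut were Obp56h, Obp19c and Obp57b with highest group means of 2.68, 2.17 and 1.65 RPKM. Just outside it were Obp93a, Obp83g and Obp8a with 0.792, 0.412 and 0.403 RPKM.

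**Figure D1:**
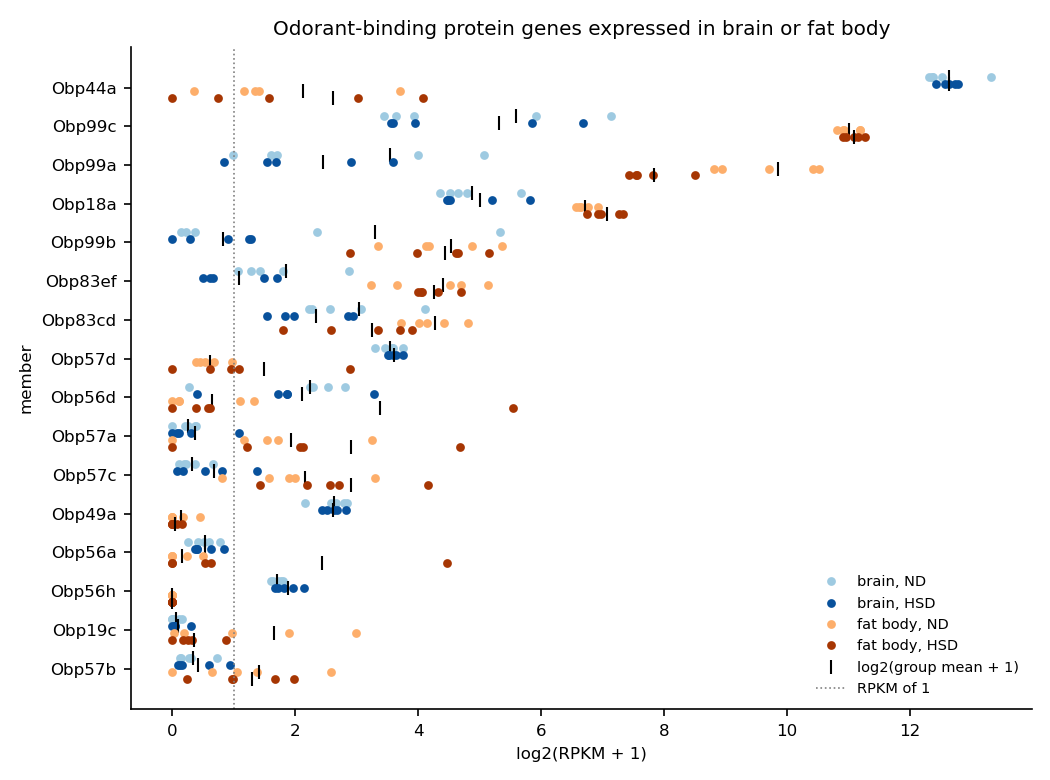
Level of each of the 16 expressed members in the 20 libraries, on the log2(RPKM + 1) scale, with one point per library, coloured by group, and a short bar for the group mean. Obp44a stood highest in the brain and Obp99c in the fat body, and most other members lay far below them.

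The expressed members were counted by subfamily and gene cluster. Of 6 Minus-C members 4 were expressed (Obp44a, Obp99a, Obp99b and Obp99c), and the most abundant member of each tissue was among them. Of 13 Plus-C members only Obp49a was expressed, at a brain mean of 5.21 RPKM on ND and 5.17 RPKM on HSD. None of 7 members known from male seminal fluid was expressed, and their highest group mean was 0.403 RPKM. Clusters were taken from the gene order of the RefSeq table for assembly Release 6, with at most 5 protein-coding genes between neighbours. In that order 3 of 4 members of the Obp99 cluster, 2 of 3 of the Obp83cd cluster and 3 of 3 of the cluster of Obp57a, Obp57b and Obp57c were expressed. In the cluster of 9 members from Obp56a to Obp56i 3 were expressed, and in the Obp50 cluster 0 of 5 were. The expressed members lay on chromosome arms 2R (9 of 29), 3R (5 of 9) and X (2 of 5), and the 1 member on 2L was not expressed.

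Obp44a, a Minus-C member known from glia of the fly brain, was the most abundant gene of the brain. Its level on ND was 5251, 5090, 5287, 5900 and 10216 RPKM in libraries 1 to 5, and on HSD it was 6101, 5469, 6385, 6802 and 7078 RPKM. The diets overlapped, and ND 5 stood highest. Obp44a ranked first of 13973 genes in each of the 10 brain libraries and made up 97.05% to 98.95% of the family's summed RPKM there. Its locus overlaps Pabp2 in Release 6, and the counting is not stated to use strand, so reads in the overlap cannot be assigned. Pabp2 itself had 12.6 to 18.6 RPKM in the brain.

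In the fat body Obp44a was low and uneven. It had 1.24, 1.67, 1.55, 0.277 and 12.1 RPKM on ND and 0.681, 15.9, 1.97, 0 and 7.10 RPKM on HSD. Each of these values lay below every brain value, and ND 5, HSD 2 and HSD 5 were the high libraries. The glial markers found (8 of 10) summed to 141.6, 164.5 and 151.3 RPKM in those libraries and to 128 to 205 RPKM in the other 7, and their part in the Obp44a level was not tested. Without ND 5 the fat body ND mean was 1.18 instead of 3.37 RPKM.

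Obp99c, a Minus-C member, was the most abundant member of the fat body. It had 1951, 1920, 1798, 2340 and 2340 RPKM on ND and 2002, 1921, 2271, 2190 and 2475 RPKM on HSD. The diets overlapped over nearly their whole range. Obp99c made up 54.65% to 78.14% of the family's summed RPKM on ND and 80.57% to 86.35% on HSD, and it ranked between 29 and 82 among all genes of a library. Its locus spans part of Gycalpha99B in Release 6, a guanylyl cyclase subunit gene, so reads in the overlap cannot be assigned. Gycalpha99B had 2.73 to 8.11 RPKM in the fat body and 170 to 209 RPKM in the brain. The brain level of Obp99c may thus include reads of that gene, which was not tested.

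Obp99a, a Minus-C member of the same cluster, came second in the fat body on both diets by group mean, at 925 ± 478 RPKM (SD, n = 5) on ND and 227 ± 78.7 RPKM (n = 5) on HSD. Its share of the family's summed RPKM was 15.06% to 41.19% on ND and 6.525% to 11.95% on HSD. The summed RPKM of the family in the fat body was 3175 ± 317 on ND and 2615 ± 255 on HSD (n = 5 each), which was 0.170% to 0.214% of reads on ND and 0.142% to 0.1805% on HSD. In the brain the family took 0.333% to 0.679% of reads on ND and 0.3575% to 0.4658% on HSD.

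Obp18a, on the X chromosome, was the third member by group mean in the fat body on both diets. It had 93.7, 99.6, 97.0, 121 and 108 RPKM in the fat body on ND and 161, 107, 124, 152 and 120 RPKM on HSD. Its brain levels were 24.0, 22.0, 19.6, 26.8 and 50.0 RPKM on ND and 21.9, 21.5, 21.1, 55.4 and 35.7 RPKM on HSD. Every fat body library stood above every brain library.

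Obp99b, also called tsx and known from fat cells of the male head, was present in every fat body library and uneven in the brain. It had 17.1, 16.5, 40.1, 28.4 and 9.16 RPKM in the fat body on ND and 14.9, 23.5, 34.7, 6.43 and 24.0 RPKM on HSD. In the brain it had 0.165, 0.288, 0.1, 4.13 and 39.5 RPKM on ND and 0, 0.223, 0.871, 1.37 and 1.43 RPKM on HSD. Brain ND 5 exceeded every fat body library other than ND 3, and without it the brain ND mean was 1.17 instead of 8.83 RPKM.

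Obp83cd and Obp83ef, neighbours whose loci overlap in Release 6, so that shared reads cannot be assigned, were of middling level. Obp83cd had 12.2, 16.7, 27.2, 15.3 and 20.5 RPKM in the fat body on ND and 12.1, 9.21, 5.03, 2.49 and 14.0 RPKM on HSD. Obp83ef had 8.44, 11.6, 22.0, 34.2 and 24.9 RPKM on ND and 25.0, 15.5, 15.8, 15.1 and 19.1 RPKM on HSD. For both genes the diets overlapped, and library ND 3 was highest for Obp83cd and ND 4 for Obp83ef. In the brain Obp83cd had 1.92 to 16.2 RPKM and Obp83ef 0.418 to 6.39 RPKM.

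Several members of the brain were ordered by library number. Of the 11 members expressed in the brain, 6 (Obp83cd, Obp83ef, Obp99a, Obp99b, Obp99c and Obp18a) had all 4 libraries numbered 4 and 5 above all 6 numbered 1 to 3. This was the case for 12.6% of the 8911 genes tested in the brain, and the reverse order held for 6.35%. Obp99c had 9.92 to 14.5 RPKM in brain libraries 1 to 3, and 59.6, 140, 102 and 57.1 RPKM in ND 4, ND 5, HSD 4 and HSD 5. Obp99a had 0.802 to 2.27 RPKM in libraries 1 to 3, and 15.0, 32.8, 11.1 and 6.48 RPKM in the same 4 libraries. Obp44a did not separate all 4 from all 6, but within each diet libraries 4 and 5 were its highest too.

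Markers of the fat body were also higher in brain libraries 4 and 5. The fat body list, 11 of 15 symbols found, summed to 434.3 to 714 RPKM in brain libraries 1 to 3. In ND 4, ND 5, HSD 4 and HSD 5 it summed to 3733, 10170, 3730 and 1825 RPKM. The yolk protein gene Yp1 had 118 to 259 RPKM in libraries 1 to 3 and 896 to 4017 RPKM in the other 4. Levels for each 1000 RPKM of this list differed in order between members. Obp99a had 1.85 to 4.01 RPKM in the brain and 3.78 to 9.53 RPKM in the fat body on that measure, and Obp99c had 13.8 to 31.3 and 11.9 to 54.5 RPKM. Obp18a had 4.92 to 51.6 RPKM in the brain and 0.57 to 3.94 RPKM in the fat body, and Obp83cd had 1.6 to 10.6 and 0.0502 to 0.296 RPKM. Lists of other cell types also had all 4 libraries above all 6. The muscle list, all 10 found, summed to 71.03 to 118.5 RPKM in libraries 4 and 5 and to 28.47 to 48.15 RPKM in libraries 1 to 3. The hemocyte list, 7 of 10 symbols found, summed to 322.9 to 488.3 against 252.7 to 275.1 RPKM, and the oenocyte list to 47.57 to 194.3 against 37.99 to 41.19 RPKM. The gut list, 9 of 11 found, summed to 2.625 to 341.9 against 0.4874 to 1.952 RPKM, and the eye list, all 10 found, to 115.1 to 2663 against 72.71 to 114.1 RPKM, both highest in HSD 4. Their part in the brain levels of these members was not tested.

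**Figure D2:**
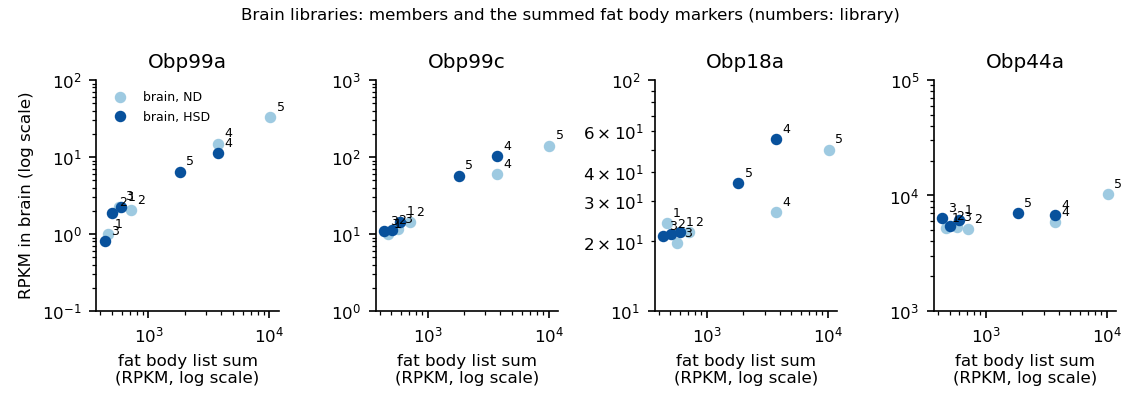
RPKM of Obp99a, Obp99c, Obp18a and Obp44a in the 10 brain libraries against the summed RPKM of 11 fat body markers, both on log axes, coloured by diet and numbered by library. Libraries 4 and 5 of both diets lie to the upper right for Obp99a, Obp99c and Obp18a, while Obp44a lies between 5090 and 10216 RPKM.

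The other brain members were low and steadier. Obp57d, which in other Drosophila species is known for a part in the response to host plant acids, had 8.85 to 12.5 RPKM in the 10 brain libraries. Its values were identical to those of Cpr57A, a cuticle protein gene whose locus overlaps it, in all 20 libraries, so that these genes cannot be told apart. Obp49a, known from taste organs, had 6.19, 5.01, 5.98, 5.38 and 3.50 RPKM on ND and 4.71, 5.24, 6.07, 4.43 and 5.40 RPKM on HSD. Obp56h had 2.04 to 2.49 RPKM on ND and 2.18 to 3.43 RPKM on HSD. Obp56d varied more, with 0.205 to 6.01 RPKM on ND and 0.318 to 8.79 RPKM on HSD, and library 2 was the lowest on both diets.

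Both brain-only members were at or near 0 in the fat body. Every fat body library listed Obp56h at 0. Against a floor of 3 reads over each fat body group, its brain mean was 52.8-fold higher on ND and 41.2-fold higher on HSD. That floor pools the depth of all libraries of a group, including those that listed few genes at low read counts. A 0 in such a library need not bound the level at the floor, so these folds are no lower bounds. Obp49a had at most 0.375 RPKM in the fat body, and 6 of the 10 libraries there were listed at 0.

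Low members of the fat body owed much of their group means to 1 library. In HSD 2 Obp56a had 21.1 RPKM, Obp56d 45.6 RPKM, Obp57a 24.7 RPKM and Obp57d 6.43 RPKM. In the other 4 HSD libraries they had at most 0.544, 0.532, 3.38 and 1.14 RPKM. Without HSD 2 the HSD means of Obp56a, Obp56d and Obp57d were 0.250, 0.337 and 0.654 RPKM, all below the cut, so that 10 members instead of 13 were expressed there. PebIII, a chemosensory protein gene of another family, also stood highest in HSD 2, with 444 RPKM against 32.7 to 144 RPKM in the other 9 fat body libraries. The cuticle and epidermis list, 9 of 10 symbols found, summed to 6.662 RPKM in HSD 2 and to 0 to 6.633 RPKM in the other 9 libraries. The antenna list summed to 2.386 RPKM in HSD 2 and to 0 to 1.74 RPKM in the other 9. In HSD 2 most of that sum came from odorant-binding protein genes of the list, lush at 0.857 and Pbprp1 at 1.02 RPKM.

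**Figure D3:**
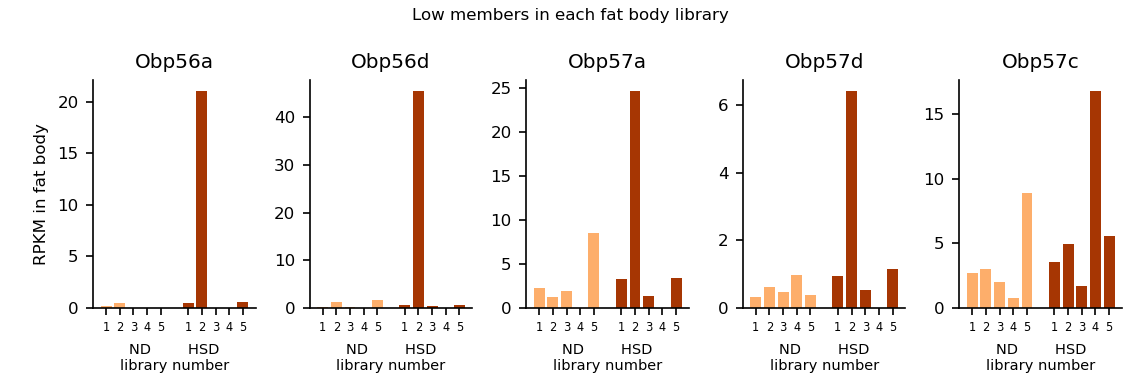
RPKM of Obp56a, Obp56d, Obp57a, Obp57d and Obp57c in each fat body library, with ND bars on the left and HSD bars on the right of each panel. HSD 2 stands far above the rest for the first 4 genes, whereas Obp57c is highest in HSD 4 with 16.8 RPKM.

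The remaining fat body members were each high in other libraries. Obp57c had 2.72, 2.99, 1.99, 0.760 and 8.89 RPKM on ND and 3.57, 4.92, 1.70, 16.8 and 5.60 RPKM on HSD. Obp57b had 1.09, 1.61, 0.566, 0 and 4.99 RPKM on ND and 0.992, 2.95, 0.957, 0.178 and 2.20 RPKM on HSD. Obp19c had 6.99, 0.964, 0.146, 2.74 and 0.0253 RPKM on ND and 0.128, 0.191, 0.247, 0 and 0.830 RPKM on HSD. For all 3 genes the diets overlapped.

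To determine how far the tissues differ in these genes, fat body was compared with brain on each diet with limma on log2(RPKM + 1), over genes with a mean of at least 1 RPKM in the libraries compared. On ND 14 members passed that filter, and 8 were higher and 5 lower in the fat body (Benjamini-Hochberg adjusted p under 0.05), beside 23.2% and 51.6% of all genes tested (74.8% in either direction). On HSD 14 passed, and 7 were higher and 4 lower, beside 27.2% and 47.3% of all genes tested (74.4% in either direction). A member passes the filter when it is high in either tissue, so these counts describe the members tested and are no measure of the whole family. Obp57c, Obp57a, Obp83ef, Obp99a, Obp99b, Obp99c and Obp18a were higher in the fat body on both diets. Obp44a, Obp49a, Obp56h and Obp57d (values shared with Cpr57A) were lower there on both diets. Obp83cd was higher and Obp56d lower on ND. Their log2 differences on HSD were 0.84 and -0.40 and did not pass (limma adjusted p = 0.0992 and 0.728). The call of Obp57a on HSD was lost with the replicate block. All fat body libraries lay above all brain libraries for 5 members on ND and 6 on HSD, beside 19.3% and 22.5% of all genes, and below them for 4 members on each diet, beside 44.5% and 42.1%.

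Obp99a and Obp99c had the largest log2 differences toward the fat body. That of Obp99c was 6.19 ± 0.64 (SE) on ND and 6.35 ± 0.57 on HSD (limma adjusted p = 3.93e-06 and 1.40e-06). That of Obp99a was 7.01 ± 0.75 on ND and 5.66 ± 0.47 on HSD (limma adjusted p = 5.46e-06 and 7.35e-07). Obp44a lay furthest in the other direction, at -10.98 ± 0.52 and -10.75 ± 0.65 (limma adjusted p = 3.52e-09 and 4.79e-08).

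Smaller differences toward the fat body were found for Obp18a and Obp83ef. That of Obp18a was 1.91 ± 0.22 on ND and 2.15 ± 0.26 on HSD (limma adjusted p = 1.13e-05 and 1.82e-05). That of Obp83ef was 2.56 ± 0.42 and 3.23 ± 0.26 (limma adjusted p = 0.000191 and 6.12e-07). Obp99b was higher in the fat body by 3.52 ± 0.42 on HSD (limma adjusted p = 1.58e-05). On ND its log2 difference was 2.69 ± 0.92 (limma adjusted p = 0.0199), and it lost the threshold without brain ND 1, ND 2 or ND 3 (adjusted p = 0.051, 0.0506 and 0.0509) and within libraries 4 and 5 (0.26, adjusted p = 0.861).

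To determine whether high sugar changed the family in the fat body, HSD was compared with ND there. None of the 14 members tested passed the threshold (limma, Benjamini-Hochberg), and neither did any of the 8224 genes tested (0%). At an unadjusted p under 0.05 there were 3 members (Obp99a and Obp83cd lower, Obp18a higher) beside 9.55% of all genes (1.78% lower and 7.77% higher). limma-voom on recovered reads also called 0 genes, with 647 at an unadjusted p under 0.05. This balance turned with the scaling. Among genes at an unadjusted p under 0.05, 639 were higher and 146 lower as deposited, 126 and 215 after median-ratio rescaling, and 237 and 222 after quantile normalization. The median log2 difference over the 14 was 0.18, and 9 lay above 0 and 5 below (7 and 7 after either rescaling), while the median over all genes was 0.19. By the ratio of group means, low members whose mean rested on few libraries differed more than Obp99a, with HSD over ND at 37 for Obp56a and 16.6 for Obp56d, and ND over HSD at 7.79 for Obp19c.

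Obp99a had 1470, 1370, 839, 451 and 493 RPKM in fat body libraries 1 to 5 on ND and 226, 186, 172, 188 and 363 RPKM on HSD. All 5 HSD libraries lay below all 5 ND libraries, which was the case for 0.268% of the genes tested, while 1.64% had the opposite order and no member did. ND 1 and ND 2 were the highest, and HSD 5 stood closest to the ND range. The ND mean was 4.07 times the HSD mean, and the log2 difference was -1.91 ± 0.34 (SE), with a limma unadjusted p = 0.000126 and adjusted p = 0.159. A two-sided exact permutation test over the 252 divisions of the 10 libraries gave p = 0.00794 for this gene alone, the smallest it can give. In bulk tissue, fewer cells that make a transcript and less of it per cell cannot be told apart.

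The size of the Obp99a difference varied with the libraries compared. Within libraries 1 to 3 it was -2.62 ± 0.23 and passed the threshold (limma adjusted p = 0.0274), with 16 genes passing there in all. Within libraries 4 and 5 it was -0.85 ± 0.33 and did not pass (adjusted p = 1). Without HSD 5 it was -2.09 ± 0.34 and passed (adjusted p = 0.0489). Over all alternatives run for this gene the adjusted p lay between 0.0274 and 1, and the difference was below 0 in each.

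Marker lists also differed in level between these libraries. The fat body list summed to 67770 to 164300 RPKM on ND and to 40800 to 91440 RPKM on HSD, with none of its 11 genes at 0 in every library of a group. Of the 9 list members tested, 8 had a lower mean log2 level on HSD, 5 of them at a limma unadjusted p under 0.05. The remaining 1 was higher on HSD, also at an unadjusted p under 0.05. At that level 1.78% of all genes were lower and 7.77% higher. After adjustment 0 list members passed the limma threshold. For each 1000 RPKM of Yp1, Obp99a had 12 to 21.1 RPKM on ND and 7.61 to 10.9 RPKM on HSD. Lsp2, another gene of the list, had 13.1 to 406 RPKM on ND and 0.0780 to 20.9 RPKM on HSD, a lower share of its ND mean than Obp99a kept. The ovary and eggshell list, all 14 genes found, summed to 296.2 to 12630 RPKM on ND and to 29.48 to 1628 RPKM on HSD. The oenocyte list, 4 of 7 symbols found, summed to 8013 to 12270 RPKM on ND and to 10690 to 24160 RPKM on HSD. The part of these lists in the Obp99a difference was not tested.

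**Figure D4:**
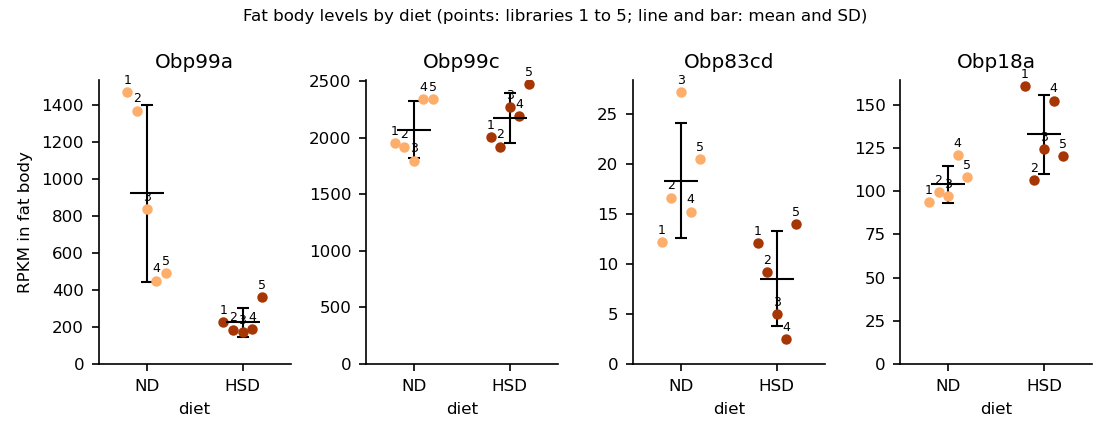
RPKM of Obp99a, Obp99c, Obp83cd and Obp18a in the fat body by diet, with one numbered point per library and a line and bar for the mean and SD of 5 libraries. The diets do not overlap for Obp99a and overlap for the other 3 genes.

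Other abundant fat body members differed less between diets. Obp83cd had a log2 difference of -1.15 ± 0.39 (limma unadjusted p = 0.0118, adjusted p = 0.398). It was lower on HSD in each of the 5 pairs of same-numbered libraries, as was Obp99a, while Obp18a was higher in each. The share of all genes with these orders was not counted. Obp18a had a log2 difference of 0.34 ± 0.14 (limma unadjusted p = 0.0330, adjusted p = 0.494), which was 0.11 ± 0.18 after median-ratio rescaling, where 2 members instead of 3 had an unadjusted p under 0.05. Obp99c differed by 0.07 ± 0.12, with a 95% interval of -0.18 to 0.32 (limma adjusted p = 0.882), and the sign of this difference turned after median-ratio rescaling (-0.16) and quantile normalization (-0.24). Obp44a differed in the fat body by 0.28 with a 95% interval of -1.45 to 2.02, and a permutation test gave p = 0.802 (exact, two-sided).

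To determine whether high sugar changed the family in the brain, the same comparison was made there. None of the 11 members tested passed the threshold (limma, Benjamini-Hochberg), none had an unadjusted p under 0.05 beside 0.887% of all genes, and none of the 8911 genes tested passed (0%). limma-voom on recovered reads also called 0, with 91 at an unadjusted p under 0.05. All HSD libraries lay above all ND libraries for 0.146% of genes and below for 0.0112%, and no member was among them. The log2 difference of Obp44a was 0.05 ± 0.20, with a 95% interval of -0.39 to 0.49 (limma adjusted p = 1), and its exact two-sided permutation test gave p = 0.849. Obp99a had a brain mean of 10.6 ± 13.7 RPKM on ND and 4.51 ± 4.28 RPKM on HSD (SD, n = 5 each). Its log2 difference of -0.56 ± 0.82 had a 95% interval of -2.39 to 1.27, and an exact two-sided permutation test gave p = 0.532. The largest brain difference below 0 was that of Obp99b at -0.94, with a 95% interval of -2.98 to 1.10. Obp83ef was next at -0.69 ± 0.37 (limma adjusted p = 1), followed by Obp83cd at -0.62 ± 0.40. Both were lower on HSD in each of the 5 pairs of same-numbered brain libraries. Their loci overlap, so they may share reads, and the share of all genes with this order was not counted. With the replicate block the SE of Obp83ef was 0.15, these 2 members had an unadjusted p under 0.05 beside 121 of all genes, and 0 genes passed after adjustment (limma). The steadiest members were Obp57d (values shared with Cpr57A) and Obp56h, whose 95% intervals ran from -0.12 to 0.26 and from -0.07 to 0.39.

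**Figure D5:**
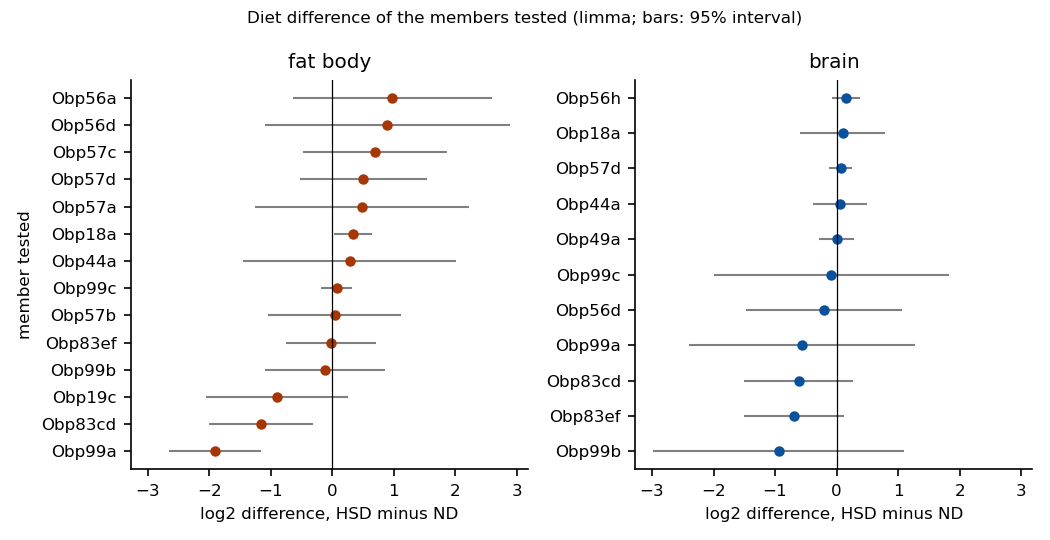
log2 difference, HSD minus ND, of the 14 members tested in the fat body and the 11 tested in the brain, as points with 95% intervals from limma. Obp99a lies lowest in the fat body, at -1.91, and its interval ends at -1.16.

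The difference between the diet effects of the tissues was tested as an interaction over all 20 libraries. None of the 14 members tested passed the threshold (limma, Benjamini-Hochberg), none had an unadjusted p under 0.05, and 0% of 9281 genes passed, with 6.44% at an unadjusted p under 0.05 (limma-voom called 0, with 568 at that level). For Obp99a the fat body difference minus the brain difference was -1.35 ± 0.94 (limma adjusted p = 0.845). Within libraries 1 to 3 it was -2.54 ± 0.40 (limma adjusted p = 0.0152, with 277 genes passing there in all). Within libraries 4 and 5 it was 0.44 ± 0.66.

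The genes whose levels followed Obp99a most closely over the 10 fat body libraries, among 6609 genes with a mean of at least 5 RPKM, were CG9510 and CG9515, which hold identical values, then Lsp2, pug and CG3699. Their Pearson correlations of log2(RPKM + 1) with Obp99a were 0.98 for the first pair, 0.97 for Lsp2, 0.96 for pug and 0.96 for CG3699. Lsp2, a larval serum storage protein gene, had a mean of 161 RPKM on ND and 5.64 RPKM on HSD. pug, an enzyme gene of folate metabolism, had 405 and 209 RPKM. Over the 10 brain libraries, Obp44a was followed most closely by CG5869, CG17331, CG32448, CG14482 and REG, with correlations from 0.97 to 0.98 among 7326 genes. The libraries share their tissue and sequencing, and these correlations are descriptions over 10 libraries.

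Other chemosensory families were counted by the same cut. Of 59 odorant receptor genes, 10 were expressed in the brain on either diet and 1 and 2 in the fat body on ND and HSD, and the highest mean was 25.7 RPKM, for Or43b. Of 61 gustatory receptor genes, 3 were expressed in the brain on each diet, and 2 on ND and 1 on HSD in the fat body. Of 59 ionotropic receptor genes, 8 (ND) and 7 (HSD) were expressed in the brain, against 4 and 3 for fat body. Of 18 CheA and CheB genes, 1 (ND) and 2 (HSD) were expressed in the brain, against 1 on each diet for fat body. Of the OS-D proteins 3 genes were found, and PebIII and Phk-3 were expressed in every group. PebIII had means of 66.4 and 72.3 RPKM in the brain on ND and HSD and of 73.8 and 128 RPKM in the fat body, above every brain member other than Obp44a. No gene of these families passed the threshold between diets in either tissue (limma, Benjamini-Hochberg), and 0 had an unadjusted p under 0.05, beside 9.55% of all genes in the fat body and 0.887% in the brain. In the fat body 1 odorant, 1 gustatory and 4 ionotropic receptor genes, 1 CheA or CheB gene and 2 OS-D genes were tested. In the brain the numbers tested were 10, 3, 8, 1 and 2. With so few tested, 0 is no contrast with those shares. Of the odorant receptor genes tested between tissues, 7 of 7 were lower in the fat body on ND and 7 of 8 on HSD, beside 51.6% and 47.3% of all genes. Of the ionotropic receptor genes, 5 of 6 and 5 of 5 were. More genes of both families reached the cut in the brain than in the fat body, so many passed the filter through the brain. These counts are therefore no contrast with the shares of all genes.

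Of 8 older symbols of family members looked for, 7 were found in these tables, and their genes are kept apart from the 44. Pbprp4 had 2.68 to 3.90 RPKM in the brain and 0 to 4.41 RPKM in the fat body. Pbprp2 had 1.09 to 4.55 RPKM in the brain on ND and 1.67 to 9.92 RPKM on HSD, where HSD 4 was highest. lush, Os-E, Pbprp3 and Pbprp5 had group means below 1 RPKM in both tissues, and Pbprp1 reached 1.08 RPKM in the brain on ND.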

How the data were processed

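RPKM values per gene were used as the authors deposited them, 1 table per library. Reads were aligned with TopHat to dm3, per the submitters' processing notes, and uniquely mapped reads of poly(A) RNA were kept, per the labels. Entries with a repeated symbol (1107 of 15080) were left out, and no member was among them. Depths come from whole reads recovered from the RPKM values (99.75% of values above 0 were whole within 0.01 of a read). No molecular identifiers mark single molecules, so floors hold for counting error alone. limma 3.58.1 (R 4.3.3) compared groups on log2(RPKM + 1), with trend, over every gene whose mean reached 1 RPKM, two-sided, at a Benjamini-Hochberg adjusted p of 0.05. Differences on this scale understate changes of low genes. Figures and permutations used Python 3.11.15. The fits were also run on simulated reads with the same dispersion for all genes and no split by library number. That run is thus no check on single high libraries or on the split seen here, and its outcome is not given. The labels do not state whether replicates came from separate cultures or animals, so a p-value here reflects library-to-library spread only, part of which may be technical.

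The members, lists, alternatives and tests were chosen with earlier results of these data known. The split into libraries 1 to 3 and 4 to 5 also comes from those results, not from the labels. All members were to be named, those with a group mean of at least 1 RPKM in full. For likeness, the 5 genes with the highest correlation were taken. All 44 members matched the RefSeq table of Release 6 plus ISO1 MT by symbol, and it was used for names and gene order only. In that table some symbols of the Obp57 and Obp99 clusters are also older names of neighbours, and symbols are given as the tables print them. No coordinates or sequences are given.

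Same-numbered ND and HSD libraries deviated together (correlations of their deviations from group means, brain 0.44, 0.58, 0.55, 0.30 and 0.66, fat body 0.25, 0.15, 0.65, 0.23 and 0.13), and they were treated as pairs in the replicate block. The pairing comes from this check, and the labels state no source for it.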

Additional observations from a re-analysis of the deposited data

Results flagged for a closer look

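In 45 groups of 5 libraries with a mean of at least 1 RPKM, 14 held a library whose gap to the nearest other was more than 0.71 of the group's range. Among independent groups of normally distributed values this cut would flag about 1 in 20. RPKM values need not follow that shape, and these groups share libraries, so the 14 cannot be set against that rate. 4 of the 14 were in brain ND 5, where Obp44a stood at 10216 RPKM (others 5090 to 5900), Obp99b at 39.5 RPKM (others 0.1 to 4.13), Obp18a at 50.0 RPKM (others 19.6 to 26.8) and Obp83ef at 6.39 RPKM (others 1.09 to 2.48). The fat body list also stood highest in that library, at 10170 RPKM.

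In fat body HSD 2, Obp56a stood at 21.1, Obp56d at 45.6, Obp57a at 24.7 and Obp57d at 6.43 RPKM. In fat body ND 5, Obp44a stood at 12.1 RPKM (others 0.277 to 1.67), Obp57c at 8.89 RPKM (others 0.760 to 2.99) and Obp57a at 8.56 RPKM (others 0 to 2.30). Obp57c stood at 16.8 RPKM in fat body HSD 4, Obp99a at 363 RPKM in fat body HSD 5 (others 172 to 226), and Obp56d at 8.79 RPKM in brain HSD 3 (others 0.318 to 2.65).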

How the results depend on the processing

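No member passed between diets under other pseudocounts, filters, scalings or limma-voom on recovered reads. Within libraries 1 to 3, 1 member passed in the fat body (Obp99a, log2 difference -2.62) and 1 in the interaction. Leaving out 1 library at a time gave 0 to 1 members in the fat body (1 without HSD 5), 10 to 14 between tissues on ND and 10 to 12 on HSD, and Obp99a differences of -2.13 to -1.70. With the filter at 5 RPKM, 8 members differed between tissues on ND and 7 on HSD, and with no filter 20 did on ND, because fewer or more members were tested. With the replicate block 0 members passed between diets in either tissue and in the interaction, 13 between tissues on ND and 10 on HSD, and the Obp99a difference kept its value of -1.91 (limma adjusted p = 0.343). On HSD the call lost was that of Obp57a. Between tissues, same-numbered ND libraries did not deviate together (correlations -0.22 to 0.07), and HSD libraries were not checked. The sign turned for uncalled differences: Obp99c in the fat body (-0.16 after median-ratio rescaling, -0.24 after quantile normalization, -0.0076 within libraries 4 and 5), Obp44a in the brain (-0.16 within libraries 4 and 5, -0.0123 to 0.239 with 1 library left out, below 0 without brain ND 1 or ND 2), Obp99a in the brain (-0.9827 to 0.0398 with 1 left out, above 0 without brain ND 5) and the Obp99a interaction (0.44 within libraries 4 and 5). The causes were not tested. At a cut of 5 RPKM, 8 members were expressed in the brain on ND, 5 in the brain on HSD, 6 in the fat body on ND and 10 in the fat body on HSD. At 1 RPKM in every library, 6 were expressed in the fat body on ND and 7 on HSD. Low members are limited by depth, most of all in fat body ND 4.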
